A study of Mus musculus with 12 samples.

Results

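The 28 genes described here make, transport, bind and break down retinoic acid, or carry its signal to DNA. They were chosen as a list of gene symbols and fall into 6 roles: 6 receptors, 6 synthesis enzymes, 3 breakdown enzymes, 5 transport and storage proteins, 5 receptor cofactors and 3 Meis transcription factors. The synthesis role also holds Rdh11 and Dhrs3, which reduce retinaldehyde. The list holds 28 of 21896 protein-coding mouse genes. Of these 28 genes, 25 held a peak in at least 1 list, and together they held 310 of the 118075 deposited peaks.

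The study mapped N6-methyladenosine (m6A), a methyl mark on adenosines of messenger RNA, with an antibody that pulls down methylated RNA fragments of about 200 nucleotides. It compared mouse spermatogonial stem cells (SSC), the self-renewing germline cells of the testis, with induced neural stem cell-like cells (iNSC) made from them. Each group had 3 immunoprecipitation (IP) libraries, each with 1 peak list, and the 6 paired input libraries were not analysed here. The SSC were grown on mitotically inactivated STO fibroblast feeders in medium with LIF, EGF, bFGF at 10 ng/mL and GDNF at 20 ng/mL. To make iNSC, SSC were moved to laminin and given 1 µM retinoic acid in SSC medium for 24 h. They then went into a neural medium with 10 µM SB431542, an inhibitor of TGF-beta type I receptors, and bFGF at 20 ng/mL. The retinoic acid exposure was therefore part of how the iNSC were made, and the labels do not give the day of harvest. No label gives the mouse strain or genotype or says that replicates came from separate cultures, so p-values reflect only how far these libraries differ, possibly for technical reasons. Groups follow the titles and source names, since the characteristics list each group under the other cell type.

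Retinol is oxidised to retinaldehyde by enzymes such as Rdh10, and retinaldehyde is oxidised to retinoic acid by Aldh1a1, Aldh1a2 and Aldh1a3, while Cyp26 enzymes break retinoic acid down. Retinoic acid binds the RAR receptors, which sit on DNA as dimers with RXR receptors and exchange corepressors for coactivators once bound. In the testis this pathway starts the differentiation of spermatogonia, and in the embryo it patterns the hindbrain and spinal cord.

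A peak needs both the transcript and the methyl mark. Fewer cells, less RNA per cell and less methylation cannot be told apart from these lists. The SSC lists held 27597, 19728 and 24775 peaks and the iNSC lists 13913, 16002 and 16060, so counts are also given with every list limited to its 13913 best-scoring peaks. The iNSC peaks were wider, with median widths of 433, 397 and 368 bases against 193, 205 and 202 bases in the SSC lists. Coordinates are read as GRCm38, and positions are given against the RefSeq gene spans, without exons. Scores ran from 50 upward with a pile-up at 3100. At equal list length the lowest scores kept were 156.35, 109.5 and 141.59 in SSC and 50.02, 83.75 and 82.67 in iNSC. The lists hold no read counts, so depth is unknown and no counting interval can be given. Peaks lay in 8, 5 and 7 of 12 spermatogonial markers in SSC and in 1, 1 and 2 in iNSC. Of 11 neural stem cell markers, 6, 5 and 5 had one in SSC and 2 had one in each iNSC list. At equal list length the spermatogonial markers counted 7, 4 and 7 in SSC and 1, 1 and 1 in iNSC. The neural markers then counted 5, 5 and 5 against 2, 2 and 2. Pax6 had a peak only in iNSC lists, Sox2, Msi1, Cdh2 and Vim only in SSC lists, and Sox1, Fabp7, Hes5 and Olig2 in none.

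The start regions of 5 genes are shown because they hold a receptor-type repeat or a peak shared by one group. Sequences are from RefSeq on GRCm38.p6 and run 5′ to 3′ on the gene's own strand. RAR and RXR dimers are known to bind repeated hexamers. The hexamers AGGTCA and AGTTCA were searched, and so were GGGTCA and GGTTCA. Any 2 of these 4 in the same direction with a spacer of 5 bases counted as a pair, on either strand. Such a pair was found in 32 of 32851 start windows, or 0.0974%, each window holding 250 bases before and 50 after a start. Start windows were given for 23 of the 28 genes, 40 windows in all, and the pair was found in windows of Rarb and Cyp26a1. The same hexamers with a spacer of 1 base occurred in 0.222% of windows and with a spacer of 2 bases in 0.268%, in none of the 40. In these 2 sequences, the 250 bases before the start at chr14:16575477-16575726 (minus strand) and chr19:37697558-37697807 (plus strand), capitals mark the pair and its spacer.
Rarb: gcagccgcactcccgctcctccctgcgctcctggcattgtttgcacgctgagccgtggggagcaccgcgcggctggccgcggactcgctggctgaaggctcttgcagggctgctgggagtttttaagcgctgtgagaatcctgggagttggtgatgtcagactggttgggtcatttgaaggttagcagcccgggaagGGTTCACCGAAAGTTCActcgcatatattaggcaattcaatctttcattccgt
Cyp26a1: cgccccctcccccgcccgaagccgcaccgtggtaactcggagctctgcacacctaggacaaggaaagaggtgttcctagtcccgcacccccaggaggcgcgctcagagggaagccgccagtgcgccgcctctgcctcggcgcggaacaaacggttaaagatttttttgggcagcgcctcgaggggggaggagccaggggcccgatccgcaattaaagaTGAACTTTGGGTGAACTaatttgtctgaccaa
In Rarb the pair lay on the gene's own strand, 53 to 37 bases before the start. In Cyp26a1 it lay on the opposite strand, 32 to 16 bases before the start, so the printed letters are its reverse complement. The Cyp26a1 gene span begins at chr19:37697738, so this start and the pair lie inside it. A match is a description of letters and not evidence of a bound receptor.

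The next sequences are the first 30 transcribed bases of 3 genes where the same start carried a peak in all 3 lists of 1 group. They lie at chr9:71215789-71215818 (plus strand), chr11:19018940-19018969 (minus strand) and chr11:98937696-98937725 (plus strand). Capitals mark the form of the m6A consensus that was searched, an adenosine followed by a cytosine, with a purine just before it, any base but guanine just after it and any base but cytosine at the front of the 5 bases. It was searched on the transcript strand.
Aldh1a2: atacagcgagcgcgccccggccgcgcagcg
Meis1: agcattctggtcggaatccacctctccgcc
Rara: tttcagcctctgcacgTGACTcgccatggc
The consensus was present at bases 17 to 21 of the Rara start and absent from the other 2 stretches. It occurred in the 50 transcribed bases of 54.4% of all start windows, so its presence sets no gene apart.

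Across the 28 genes, peaks were found in more genes in SSC than in iNSC. The SSC lists covered 21, 15 and 20 of the genes and the iNSC lists 10, 12 and 11. The means were 66.7% ± 11.5 of the genes in SSC and 39.3% ± 3.57 in iNSC (SD, n = 3), against 42.6% ± 4.64 and 31.1% ± 1.31 of all protein-coding genes. Of the 25 genes with a peak, 12, or 48%, had a peak in at least 1 SSC list and in no iNSC list, against 40.4% of the 13193 genes with any peak. None of the 25 showed the opposite, against 4.89% of all genes. With equal list lengths the counts became 7, 13 and 13 in SSC and 10, 10 and 11 in iNSC, and the 2 groups overlapped. The means were then 39.3% ± 12.4 and 36.9% ± 2.06, against 30.04% ± 0.970 and 29.56% ± 0.226 of all protein-coding genes. The surplus of SSC genes was thus not seen once the lists had the same length. Over all protein-coding genes the groups then overlapped too, so this loss was not particular to the set.

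**Figure D1:**
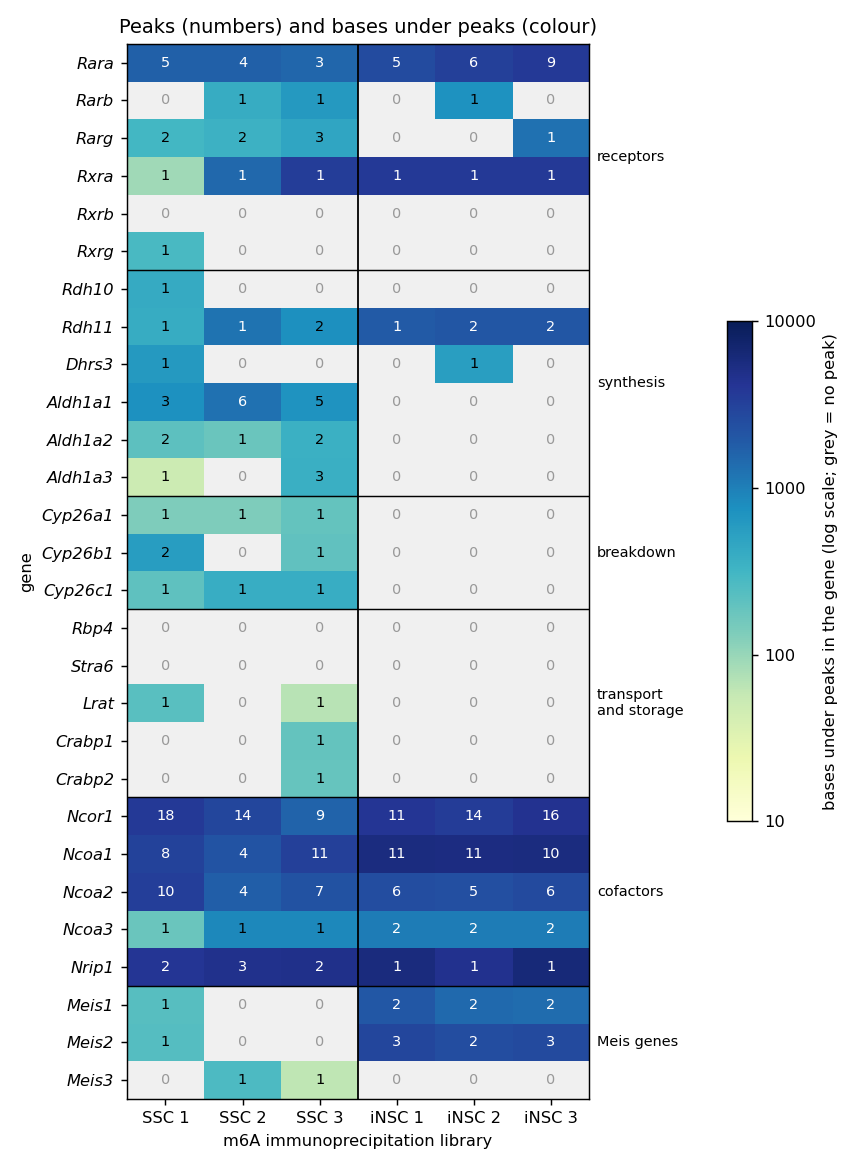
Each row is 1 of the 28 genes, grouped by role, and each column 1 of the 6 libraries, with the number of peaks in each cell and the covered bases as colour on a log scale. The synthesis, breakdown and transport rows are filled mainly in the SSC columns, and the cofactor rows are filled in all 6.

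Counts by role are of 3 to 6 genes each, beside 42.6% of all protein-coding genes in SSC and 31.1% in iNSC. The 5 cofactors, with spans of 80606 to 235123 bases, had a peak in every one of the 6 lists. Of the 3 breakdown enzymes, with spans of 3799 to 22495 bases, 3, 2 and 3 had a peak in the SSC lists. None had one in an iNSC list. The synthesis enzymes counted 6, 3 and 4 of 6 in SSC and 1, 2 and 1 in iNSC, and the receptors 4, 4 and 4 of 6 against 2, 3 and 3. The iNSC peaks of the synthesis role lay in Rdh11 and Dhrs3 alone, and none lay in Rdh10 or the Aldh1a genes. At equal list length the breakdown enzymes fell to 0, 1 and 1 in SSC, and the synthesis enzymes to 0, 3 and 3, against 1, 1 and 1 in iNSC.

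**Figure D2:**
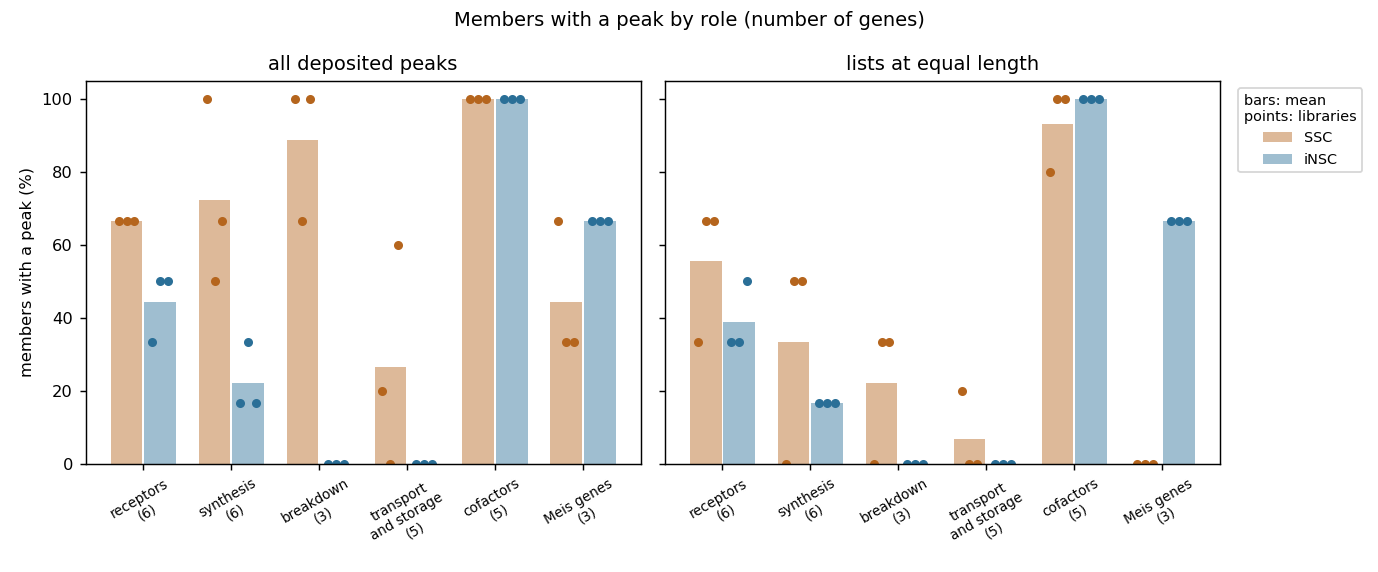
Bars give the mean percentage of each role's genes with a peak and points the 3 libraries of each group, from all deposited peaks and from lists of 13913 peaks each. The SSC bars of the synthesis and breakdown roles are lower at equal length, while 4 or 5 of the 5 cofactors have a peak in every list.

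Of the 25 genes, 4, or 16%, were SSC-only, with a peak in all 3 SSC lists and no iNSC list, against 11.3% of all genes. They were Aldh1a1, Aldh1a2, Cyp26a1 and Cyp26c1. No gene was iNSC-only, against 2.18% of all genes. Another 8 of 25, or 32%, had a peak in all 6 lists, against 30.1%. All these shares were of the same order as the background.

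In the receptor group, Rara, the RAR receptor expressed in most tissues, carried more covered bases in iNSC. Peaks covered 1700, 1725 and 1531 bases of it in the SSC lists and 2566, 3277 and 3763 bases in the iNSC lists. All 3 iNSC libraries were higher than all 3 SSC libraries. The means were 1652 ± 106 and 3202 ± 602 bases (SD, n = 3), a ratio of 1.94, with p = 0.1 in an exact two-sided permutation test over libraries. That is the smallest p that 3 against 3 libraries allow, so no single gene here can pass 0.05.

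Within Rara, regions at a start and at the gene end differed between the groups. A peak at chr11:98937696-98937879 was present in all 3 iNSC lists and no SSC list, 184 bases wide in each. Its first base is the first base of the start printed above, which lies 9896 bases inside the gene span, and its scores stood at percentiles 27.5, 47.7 and 67.9 of their lists. At the gene end, chr11:98973420-98974942, peaks covered 681, 873 and 775 bases in SSC and 1523, 1508 and 1523 in iNSC. An internal peak, chr11:98950245-98950795, was 551 bases in all 6 lists, at percentiles 38.7, 45.2 and 24.6 in SSC and 79.0, 76.7 and 78.2 in iNSC. Percentiles are within a list and were not tested between lists.

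Rxra, the most widely expressed RXR, had 1 peak in each library, but not in the same place. The peak of SSC library 1, chr2:27677371-27677460, lay 926 bases inside the gene from its start with a score of 51.21. The peaks of the other 5 libraries lay near the gene end, within chr2:27759541-27763284, where SSC library 1 had none. Peaks covered 90, 1494 and 3447 bases in SSC and 3744, 3688 and 3742 bases in iNSC. All iNSC values were above all SSC values, and the SSC libraries differed widely among themselves while the iNSC libraries nearly coincided. The means were 1677 ± 1686 and 3725 ± 31.8 bases, a ratio of 2.22 (exact permutation p = 0.1). At the gene end its score was 3100 in all 3 iNSC lists and 761.61 and 280.16 in SSC libraries 2 and 3.

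The other receptors gave few peaks. Rarg, the RAR of spermatogonia and skin, was covered over 303, 347 and 462 bases in SSC and 0, 0 and 1286 in iNSC. Covered bases overlapped (exact permutation p = 1), while peaks per gene, 2, 2 and 3 against 0, 0 and 1, did not (exact permutation p = 0.1). Its region chr15:102241058-102241199 was 142 bases wide in all 3 SSC lists and in no iNSC list, and the 1286 bases of iNSC library 3 were a peak at the gene end instead.

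Rarb, itself a classical retinoic acid target, was covered over 0, 402 and 616 bases in SSC and 0, 723 and 0 in iNSC. The start printed above lies inside the gene span, and the 2 SSC peaks lay just downstream of it, at chr14:16575069-16575470 and chr14:16574858-16575473. The iNSC peak lay near the gene end, at chr14:16431545-16432267, with a score of 64.26. Rxrg had 1 SSC peak of 283 bases, and Rxrb had none in any list.

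Among the synthesis enzymes, Aldh1a1 and Aldh1a2, 2 of the 3 dehydrogenases that make retinoic acid, had peaks in every SSC list and in no iNSC list. Aldh1a1 was covered over 734, 1255 and 709 bases in SSC, with 3, 6 and 5 peaks, and its best scores were 112.91, 340.82 and 348.21. The 6 peaks of SSC library 2 lay between 14307 bases and 1 base before the gene end. The SSC mean was 899 ± 308 bases against 0 in iNSC (exact permutation p = 0.1). Aldh1a2 was covered over 216, 175 and 360 bases with 2, 1 and 2 peaks, a mean of 250 ± 97.2 against 0 (exact permutation p = 0.1).

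The shared Aldh1a2 peak, chr9:71215789-71215963, was 175 bases wide in each SSC list and began at the first base of the start printed above. It stood at percentiles 8.94, 50.6 and 33.7 of the 3 lists, so it was a low to middling peak. With lists of equal length Aldh1a1 and Aldh1a2 kept a peak in 2 and 1 of the 3 SSC lists, and their groups then overlapped. Aldh1a3 was covered over 50, 0 and 370 bases in SSC and none in iNSC.

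Aldh1a1 is also a Sertoli cell marker. Peaks lay in 7, 6 and 4 of 10 Sertoli markers in SSC and in 1, 3 and 1 in iNSC, and Aldh1a1 is itself among the 10. At equal list length the counts were 4, 4 and 4 against 1, 1 and 1, and no Sertoli marker was SSC-only. In the full lists Gata4 and Inhbb were SSC-only like Aldh1a1, and Sox9 was in all 6 lists. Wt1 was in 2 SSC lists, Amh was in SSC library 2 alone, and Amhr2 and Rhox5 were in iNSC library 2 alone. Their part in the Aldh1a1 result was not tested. Markers of other cell types were read from the same full lists, which covered 42.6% of all protein-coding genes in SSC and 31.1% in iNSC. Of 7 epithelial markers, 5, 6 and 3 had a peak in SSC and none in iNSC, and of 7 endothelial markers, 5, 3 and 5 had one in SSC and 1 had one in each iNSC list. Of 10 fibroblast and feeder markers, 5, 3 and 8 had a peak in SSC and 4, 3 and 4 in iNSC. Of 6 Leydig cell markers, 1 had a peak, in SSC library 3 alone. The part of these cell types in the SSC-only genes was not tested.

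Rdh11, a retinal reductase of the retinol dehydrogenase family, went the other way. Its covered bases were 397, 1246 and 768 in SSC and 1914, 2085 and 2062 in iNSC, without overlap. The means were 804 ± 426 and 2020 ± 92.8 bases, a ratio of 2.51 (exact permutation p = 0.1). In the region chr12:79174337-79176250 the peaks stood at percentiles 4.80, 36.1 and 53.5 in SSC and 3.43, 23.5 and 28.5 in iNSC. When only the better 50% of each list was kept, no iNSC list held an Rdh11 peak and the direction turned.

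Rdh10, the main enzyme of embryonic retinol oxidation, had 1 peak, of 405 bases within the gene, in SSC library 1. Dhrs3, which returns retinaldehyde to retinol, was covered over 609, 0 and 0 bases in SSC and 0, 546 and 0 in iNSC, and its groups overlapped. Dhrs3 lies beside Vps13d, whose span it overlaps, and its peaks were assigned by strand.

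The breakdown enzymes were found in SSC lists only. Cyp26a1 was covered over 135, 135 and 193 bases in SSC, with best scores of 55.08, 102.01 and 575.16, and over none in iNSC. The Cyp26a1 peak was the same in SSC libraries 1 and 2, chr19:37699896-37700030, and lay elsewhere in the gene in library 3, at chr19:37698879-37699071. Cyp26c1 was covered over 210, 391 and 391 bases with scores of 66.7, 124.3 and 51.77, and over none in iNSC. The means were 154 ± 33.5 and 331 ± 104.5 bases (exact permutation p = 0.1 for each). Apart from 575.16 these best scores lay between 51.77 and 124.3, in lists that began at 50. Cyp26b1, the form known to shield germ cells from retinoic acid in the fetal testis, was covered over 561, 0 and 204 bases in SSC. At equal list length Cyp26a1 and Cyp26c1 each kept a peak in 1 SSC list.

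The Cyp26c1 peaks lay at the gene end, chr19:37692930-37693398, where the union of the lists reached 78 bases past the annotated end. Cyp26a1, the classical retinoic acid-induced breakdown gene, carries the hexamer pair printed above. Of the 16 protein-coding genes with such a pair, 6 had a peak in any SSC list and 3 in any iNSC list. Of these 16 genes 2 were SSC-only, namely Cfap45 and Cyp26a1, against 1487 of all 21896 protein-coding genes. Single lists covered 42.6% of all protein-coding genes in SSC and 31.1% in iNSC on average. The counts of genes with a pair are too small to compare with these, and whether the pair bears on the peaks was not tested.

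Transport and storage genes had few peaks, with 3 of 5 marked in any list. Lrat, which esterifies retinol for storage, was covered over 225, 0 and 67 bases in SSC. Crabp1 and Crabp2, which bind retinoic acid in the cytoplasm, were covered over 194 and 188 bases in SSC library 3 alone. Rbp4, the plasma retinol carrier, and Stra6, its membrane receptor, had none in any list, and no gene of this role had an iNSC peak.

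**Figure D3:**
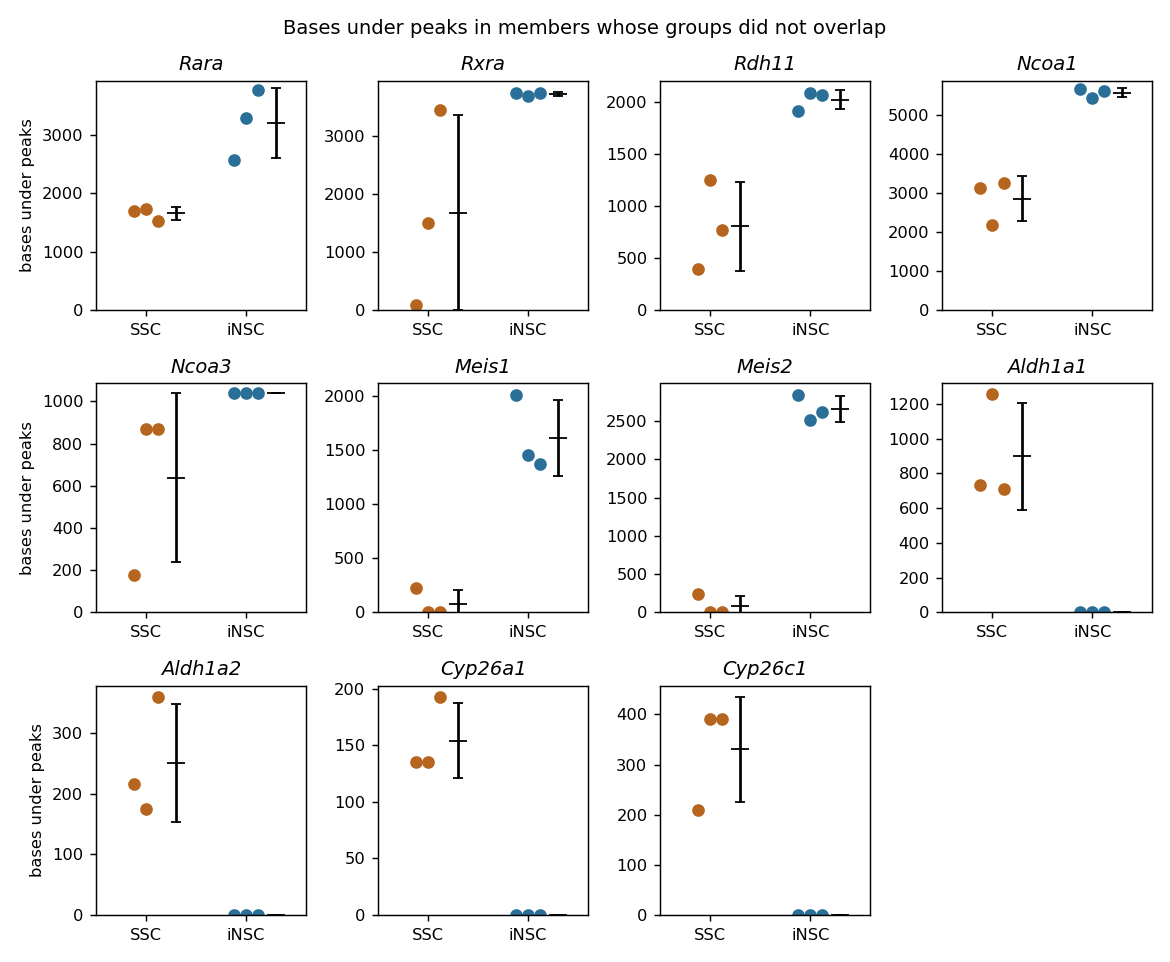
Points give the bases covered by peaks in each library, SSC and iNSC side by side, for the genes whose groups do not overlap, with lines at the mean and the SD over 3 libraries. Aldh1a1, Aldh1a2, Cyp26a1 and Cyp26c1 are at 0 in iNSC, and Rara, Rxra, Rdh11, Ncoa1, Ncoa3, Meis1 and Meis2 are higher in iNSC.

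The covered bases of 4 of 25 genes, 16%, did not overlap with SSC higher, against 15.6% of all genes, and those of 7 of 25, 28%, did not overlap with iNSC higher, against 17.5%. In peaks per gene, 6 of 25, 24%, were higher in SSC without overlap, against 16.5%. These were Rarg, Aldh1a1, Aldh1a2, Cyp26a1, Cyp26c1 and Nrip1. Ncoa3, Meis1 and Meis2, or 12%, were higher in iNSC, against 4.22%. Nrip1 had 2, 3 and 2 peaks in SSC and 1 in each iNSC list. All 6 lists held 1 long peak near its gene end, and the further SSC peaks, of 58 to 178 bases, lay far from it, at or nearer the gene's starts.

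The cofactors carried peaks in every list. Ncor1, the corepressor that RARs hold before ligand binds, had 18, 14 and 9 peaks in SSC and 11, 14 and 16 in iNSC. Its covered bases were 2748 ± 1076 and 3988 ± 465, and the groups overlapped (exact permutation p = 0.2). It held 6 of the 14 regions of the set that were found in all 6 lists. One of them, chr11:62384718-62384845, was 128 bases wide with a score of 3100 in every list. A region at its gene end, chr11:62316426-62318030, was found only in the iNSC lists, over 1605, 1127 and 1369 bases at percentiles 77.1, 81.7 and 73.1.

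Ncoa1, a p160 coactivator, had 8, 4 and 11 peaks in SSC and 11, 11 and 10 in iNSC. Its covered bases were 2854 ± 581 and 5569 ± 120, a ratio of 1.95, with no overlap (exact permutation p = 0.1). At its gene end, chr12:4247362-4249750, peaks covered 1149, 505 and 536 bases in SSC and 2389 bases in each iNSC list. An internal region, chr12:4294910-4296248, was covered over 1248, 1339 and 1339 bases in SSC and 1339 in each iNSC list. Small internal regions at chr12:4270747-4270848 and chr12:4354361-4354509 were found only in iNSC.

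Ncoa3, another p160 coactivator, was covered over 175, 869 and 869 bases in SSC and 1041 bases in each iNSC list (exact permutation p = 0.1). A peak of 869 bases, chr2:166054771-166055639, was identical in 5 of the 6 lists, with scores of 135.62 and 212.17 in SSC libraries 2 and 3 and 3100 in each iNSC list. The 175 bases of SSC library 1 lay elsewhere, at chr2:166050066-166050240. The 172 bases more in iNSC than in SSC libraries 2 and 3 were the region chr2:166060757-166060928, found in all 3 iNSC lists alone. Ncoa2 did not separate, with 2448 ± 835 and 2509 ± 129 covered bases (exact permutation p = 0.9). Its region chr1:13174079-13175348 spanned 1238, 1270 and 1270 bases in SSC and 1270 in each iNSC list, and chr1:13164700-13165102 was found only in iNSC. Nrip1, which represses in a ligand-dependent way, was covered over 4450 ± 381 and 5484 ± 869 bases (exact permutation p = 0.3). Most of that lay in 1 region, chr16:76288786-76295015, covered over 3963, 4327 and 4569 bases in SSC and 5693, 4530 and 6230 in iNSC.

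Meis1 and Meis2, TALE homeobox genes that respond to retinoic acid in the limb and hindbrain, had far more covered bases in iNSC. Meis1 was covered over 230, 0 and 0 bases in SSC and 2015, 1459 and 1371 in iNSC. Meis2 was covered over 237, 0 and 0 bases in SSC and 2845, 2514 and 2622 in iNSC. For both, SSC library 1 alone held a small peak, and all iNSC libraries lay far above it. The means were 76.7 ± 133 and 1615 ± 349 bases for Meis1 and 79 ± 137 and 2660 ± 169 bases for Meis2 (exact permutation p = 0.1 for each).

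Meis1 had iNSC peaks at both ends. A start inside its span, printed above, carried the same peak of 749 bases in all 3 iNSC lists, at percentiles 28.4, 35.1 and 20.8, and the small peak of SSC library 1 lay inside the same region. Near its end, chr11:18880657-18881922 was found only in iNSC, over 1266, 710 and 622 bases at percentiles 68.3, 68.5 and 67.2. In Meis2 a region of 1038 bases, chr2:116064802-116065839, lying 1698 bases inside the gene from its start, was found in all 3 iNSC lists alone, at percentiles 62.0, 75.4 and 67.4. Another peak, nearer the Meis2 end, covered 1470, 1476 and 1244 bases with a score of 3100 in each iNSC list, and the small peak of SSC library 1 lay inside it. Both genes kept a peak in 3 of 3 iNSC lists and in no SSC list at equal list length, and also in the better 50% of each list. The Meis1 and Meis2 peaks of SSC library 1 scored 51.21 and 134.31, below the lowest score of 156.35 that equal length kept there. In iNSC library 1 that cut removed no peak. Meis3 was covered over 0, 263 and 61 bases in SSC and none in iNSC.

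**Figure D4:**
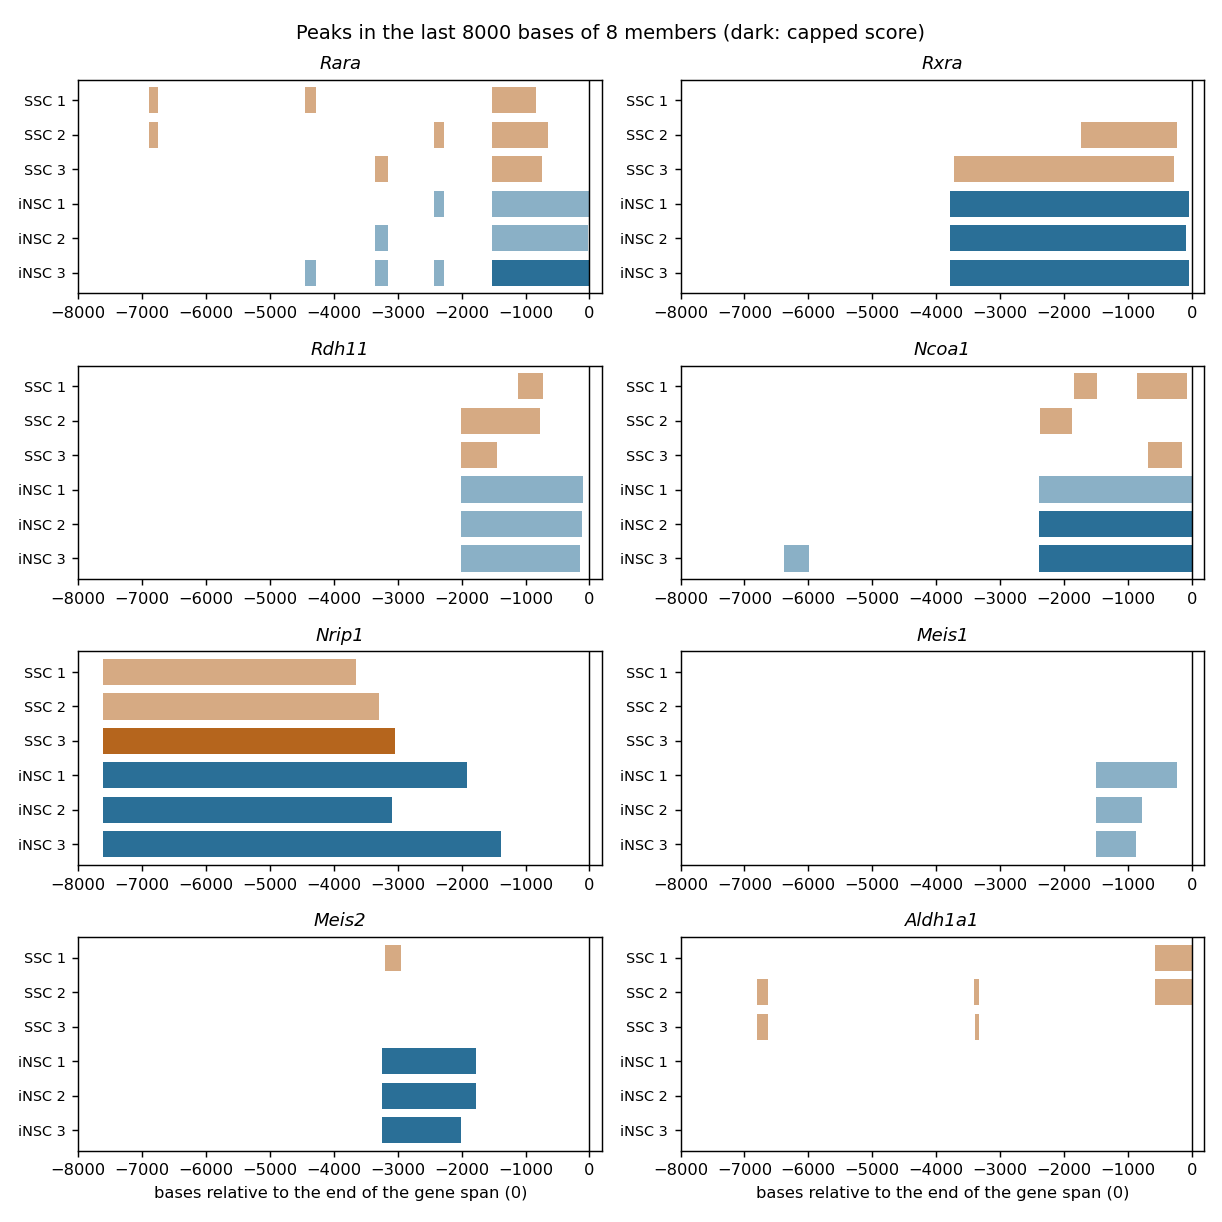
Boxes are the peaks in the last 8000 bases of 8 genes by distance from the gene end, with 1 row per library and dark boxes for scores of 3100 or more. The iNSC peaks of Rara, Ncoa1, Rdh11 and Meis2 near the end are wider than the SSC peaks, Meis1 has no SSC peak there, and Aldh1a1 has SSC peaks only.

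Overlapping peaks were merged into 120 regions over the set. Of these 8, or 6.67%, were found in all iNSC lists alone, against 3.38% of all 47305 regions, and 3, or 2.5%, in all SSC lists alone, against 5.61%. The 14 in all 6 lists were 11.7%, against 10.2%. Of the 8 iNSC-only regions 5 lay in cofactors, 2 in Meis genes and 1 in Rara. The 3 SSC-only regions lay in Aldh1a2, Cyp26c1 and Rarg.

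The peaks of the set were wider and more often at the top score in iNSC, as all peaks were. Median widths were 175 ± 2.5 bases in SSC and 256 ± 70 in iNSC. Scores of 3100 or more made up 3.99% ± 2.06 and 20.1% ± 2.42 of the set's peaks, against 5.25% ± 2.03 and 16.2% ± 1.37 of all placed peaks. The last 2000 bases of the genes held 14.4% ± 3.47 of the set's peaks in SSC and 17.5% ± 2.07 in iNSC, against 18.9% ± 1.39 and 26.6% ± 1.53 of all. The part of the greater peak width in the gains of covered bases was not tested.

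Of the 23 genes with a start window, 10 had a peak over the 50 transcribed bases of a start. These were Lrat, Meis3, Crabp1, Aldh1a2, Rdh11, Rarb and Nrip1 in SSC, and Meis1, Rara and Ncoa1 in iNSC. The 7 genes in SSC were 30.4%, against 18.6% of 17491 genes with a start window, and the 3 in iNSC were 13.0%, against 12.7%. None had a start peak in both groups, against 8.58%. Aldh1a2 and Nrip1, or 8.70%, had one in all 3 SSC lists and no iNSC list, against 1.01%, and the 3 Nrip1 lists did not share 1 start. Meis1 and Rara, or 8.70%, had one in all 3 iNSC lists and no SSC list, against 0.926%. These are counts of 2 genes each.

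Other genes of the pathway were read from 4 lists, against the same background of 15.6% of genes with a peak higher in SSC without overlap and 17.5% higher in iNSC. Among 29 further retinoid metabolism genes, 11 had any peak. Of these 11, 1, or 9.09%, had more covered bases in SSC without overlap and 4, or 36.4%, in iNSC. Adh7, an alcohol dehydrogenase that oxidises retinol, was iNSC-only, with 275, 377 and 275 covered bases. Among 25 further cofactors, 24 had any peak and 15 of these had one in all 6 lists, against 30.1% of all genes with a peak. Of these 24, 1, or 4.17%, was higher in SSC and 2, or 8.33%, in iNSC. Nsd1, a histone methyltransferase, was SSC-only with 7, 7 and 2 peaks, and at equal list length it kept a peak in 2 SSC lists.

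Among 35 retinoic acid response genes, 28 had any peak. Of these 28, 3, or 10.7%, had more covered bases in SSC without overlap and 10, or 35.7%, in iNSC. Stra8, the retinoic acid-induced gene of premeiotic germ cells, was SSC-only with 2, 3 and 2 peaks. Kit, the receptor of differentiating spermatogonia, was SSC-only with 3, 1 and 2 peaks, and Hoxb5 with 1, 1 and 2. At equal list length Stra8 and Kit kept a peak in 3 SSC lists, but Hoxb5 in only 1. Pax6, a neural progenitor factor, was iNSC-only with 3, 4 and 4 peaks. Among 15 partners of RXR, 11 had any peak. Of these 11, 1, or 9.09%, was higher in SSC and 4, or 36.4%, in iNSC. Nr4a1, an orphan receptor, was SSC-only with 2, 1 and 2 peaks.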

How the data were processed

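Reads were trimmed with cutadapt 1.9.3 and aligned with HISAT2 2.0.4, and the build is named as mm9, per the submitters' processing notes. Which program called the peaks, and at what threshold, is not stated in the sources used here; the 6 IP peak lists are as the authors deposited them. Column 5 of each deposited list is a score with no stated unit. It was used to rank peaks within a list. Peak edges fell on RefSeq GRCm38 gene edges in 4.90% to 12.0% of cases as deposited and in 0.00807% to 0.0187% after a shift of 10000 bases, so GRCm38 names were used in place of the stated build.

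Peaks sharing at least 1 base with a gene span were given to that gene, and by strand where they met several genes. Covered bases are the bases of a gene's span under its peaks. Groups were compared per gene with an exact two-sided permutation test over 3 and 3 libraries, whose smallest p is 0.1. Groups were called separate where no values overlapped, and the share of all 13193 genes with a peak that did so is given beside the counts of separated genes. Group SDs are over 3 libraries. Values per library are given for genes present in 1 group only or with separated groups, and for at least 1 gene of each role. Regions named are those of 1 group only, then those in all 6 lists. The genes and lists were chosen with earlier results of these data known. Python 3.11.15, numpy 2.4.6, pandas 2.3.3 and matplotlib 3.10.9 were used, and the scripts were tested on simulated data. Alternatives were the better 50% of each list, equal list length, presence in at least 2 of 3 libraries, at least 50% of a peak inside the gene span, at least 50% of a region covered, peaks of at least 100 bases, no use of strand, pairs by replicate number, and leaving out each library. Sequence was read only from RefSeq start windows, some of which lie under peaks, and no genome or protein sequence was used. The values of 1 response gene are not reported here.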

Additional observations from a re-analysis of the deposited data

How the results depend on the processing

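With the better 50% of each list, 9.33 genes on average had a peak in SSC and 9 in iNSC. Of 17 genes with any peak, 0 were SSC-only, 2 iNSC-only and 5 in all 6 lists, against 962, 432 and 2020 of 9549 genes. Regions counted 1, 5 and 8 in the same order. With equal list length, 11 genes on average had a peak in SSC. Of 18 with any peak, 0 were SSC-only, 2 iNSC-only and 5 in all 6 lists, against 747, 744 and 2838 of 10797 genes. Regions then counted 1, 13 and 9. The 2 iNSC-only genes were Meis1 and Meis2, whose peaks in SSC library 1 scored too low to be kept. With presence in at least 2 of 3 lists, 8 genes and 17 regions were SSC-only and 13 regions iNSC-only. Leaving out 1 library gave 4 to 7 SSC-only genes (7 without SSC library 2), 0 to 2 iNSC-only genes (2 without SSC library 1) and 3 to 10 SSC-only regions (10, 5 and 8 without SSC libraries 1, 2 and 3). Shares over all genes or regions are not given for the region counts here, for presence in 2 of 3 lists or for left-out libraries.

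Covered bases of the 11 separated genes gave 132 alternative values, of which 122 kept direction and separation. Leaving out a library cannot make separate groups overlap, and pairing by replicate number keeps the values, so these settings could not change these results. The changes all came from the better 50% and from equal list length. The groups overlapped for Aldh1a1, Aldh1a2, Cyp26a1 and Cyp26c1 with the better 50% and with equal length, and for Ncoa3 with the better 50%. Rdh11 turned with the better 50%, to 256 bases more in SSC (exact permutation p = 1), because no iNSC list kept a peak there. Correlations between same-numbered SSC and iNSC libraries were 0.01, -0.02 and 0.03, and those between differently numbered ones ran from -0.056 to 0.046. Same-numbered libraries were thus no more alike than others. These values were read only against each other, and they cannot show whether the libraries were paired. A replicate block keeps the same mean difference, so it could change no direction, and its smallest possible exact p was 0.25. Missing depth limits every statement on absent peaks.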

Other observations

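Nr2f1 and Nr2f2, orphan receptors known to respond to retinoic acid, were picked after their values were seen. Nr2f1 was covered over 251, 457 and 439 bases in SSC and 2323, 2287 and 2323 in iNSC, and its means were 382 ± 114 and 2311 ± 20.8 (SD, n = 3). Nr2f2 was covered over 902, 832 and 1610 bases in SSC and 3007, 2756 and 2805 in iNSC. Both had a peak in all 6 lists, and neither gene's groups overlapped (exact permutation p = 0.1 for each, the smallest possible). As the genes were picked on these values, that separation is a description and no support. Of all genes with a peak, 17.5% were higher in iNSC without overlap. At equal list length Nr2f1 kept a peak in 1 SSC list and Nr2f2 in 3, and both kept one in 3 iNSC lists.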
